A study of Pimephales promelas with 338 samples.

Results

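Larvae of the fathead minnow (Pimephales promelas), a small freshwater fish used in toxicity testing, were exposed for 24 h to 8 concentrations of hydrochlorothiazide, and their whole bodies were profiled with a targeted panel of 1832 probes. The treatment label selected 24 libraries, 8 concentration codes (D1 to D8) on each of 3 exposure plates (A, B and C), of 338 libraries in the series. The nominal range was 66.67 to 0.021 µM in half-log steps, but the labels do not say whether D1 or D8 was the highest concentration. For this reason every trend below is given as a change per step towards D1, without a claim on dose direction.

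Each library was made from the pooled homogenate of 5 larvae, less any that had died, taken from 1 plate. All groups carried the solvent DMSO at up to 0.34%. The same 3 plates held 24 libraries of 4-chlorophenyl methyl sulfoxide at the same codes and nominal concentrations, 3 libraries of caffeine, used as a positive control, and 3 libraries of DMSO alone. The labels give the stage as larval and no age in days. In the column names the code runs with the row of the library plate, from D1 in row A to D8 in row H, so code and library row cannot be told apart. Hydrochlorothiazide, sulfoxide and DMSO libraries sat in different columns of the library plate, so these treatments and library column cannot be told apart either. Wells were arranged on the exposure plates so that replicates were spread along the edges, per the labels.

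Hydrochlorothiazide is a thiazide diuretic prescribed for high blood pressure. It blocks the sodium-chloride cotransporter of the distal kidney tubule, so that more salt and water leave in the urine, and in people it can raise urate and lower potassium. As a sulfonamide it is also a weak inhibitor of carbonic anhydrases, and it enters kidney cells through organic anion transporters. Freshwater fish lose salt to the water around them and take it up through ionocytes of the skin and gill, and in zebrafish one kind of ionocyte uses a cotransporter of the thiazide-sensitive family. The cation-chloride cotransporter genes themselves are not analysed here. The assay, TempO-Seq, counts pairs of detector oligos that are ligated when they sit side by side on their transcript.

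The libraries held between 492049 and 796467 counts with hydrochlorothiazide (median 631742.5) and between 619451 and 684256 with DMSO alone. D1 had the smallest totals, at 492049, 500427 and 590195 counts. Markers of liver, gut, cartilage, bone and nerve were present in all 24 hydrochlorothiazide libraries: the median was 3012.5 CPM (counts scaled to the library's total) for the fibrinogen gene fgb, 8814.0 for the collagen gene col1a1a and 1263.0 for the synaptic gene snap25a. The blood markers were uneven, with hbae5 (a haemoglobin chain) between 1.55 and 200.5 CPM and alas2 (the haem synthesis enzyme of red cells) counted in 11 of 24 libraries. In whole bodies, fewer cells of a type and less RNA per cell cannot be told apart. The typical biological spread between replicates was 13.2% (edgeR's common biological coefficient of variation). The hydrochlorothiazide library least like the rest was D5 on plate A, with a mean correlation of log2 CPM of 0.973 to the other libraries; the highest such mean among the hydrochlorothiazide libraries was 0.978.

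Hydrochlorothiazide gave no called gene at any code against DMSO, for the mean of the codes against DMSO, or for the linear trend over the codes; a further test for any difference among the codes called 1, calm1a. After filtering, 1531 probes were tested with edgeR's quasi-likelihood F-test, and 0 (0% of those tested) passed an adjusted p of 0.05 at any code against DMSO, with Benjamini-Hochberg adjustment over all probes and codes together. The smallest adjusted p was 0.999. Without adjustment, between 39 probes (2.55%, at D3) and 74 probes (4.83%, at D4 and D8) had p below 0.05 at a single code. The mean of all 8 codes against DMSO likewise gave 0 calls (0%), with 50 probes (3.27%) below 0.05 unadjusted, of which 16 were higher and 34 lower with hydrochlorothiazide. The trend over the codes, which uses no DMSO library, gave 0 calls (0%) and 53 probes (3.46%) below 0.05 unadjusted. DESeq2 also called 0 probes in each of these 3 comparisons; it put 30 probes below 0.05 unadjusted for the mean and 43 for the trend.

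The intervals state how large a difference these libraries did not exclude. For the mean of the 8 codes against DMSO, the 95% interval lay within 1 log2 unit of zero for 1370 of 1531 probes (89.5%) and within 0.5 for 820 probes (53.6%). At a single code, 1160 (75.8%, at D1) to 1202 probes (78.5%, at D6) had an interval within 1 log2 unit. This precision rose with the counts. Among probes with a mean under 20 counts, 266 of 415 (64.1%) were bounded this way for the mean of the codes. With 20 to 50 counts it was 354 of 366 (96.7%), and with 50 to 200 counts all 479. Taken over the 7 steps from D8 to D1, the fitted slope was bounded within 1 log2 unit for 1344 probes (87.8%), with a median half-width of 0.37. For the remaining poorly counted probes, differences above 1 log2 unit were therefore not excluded at this depth.

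**Figure D1:**
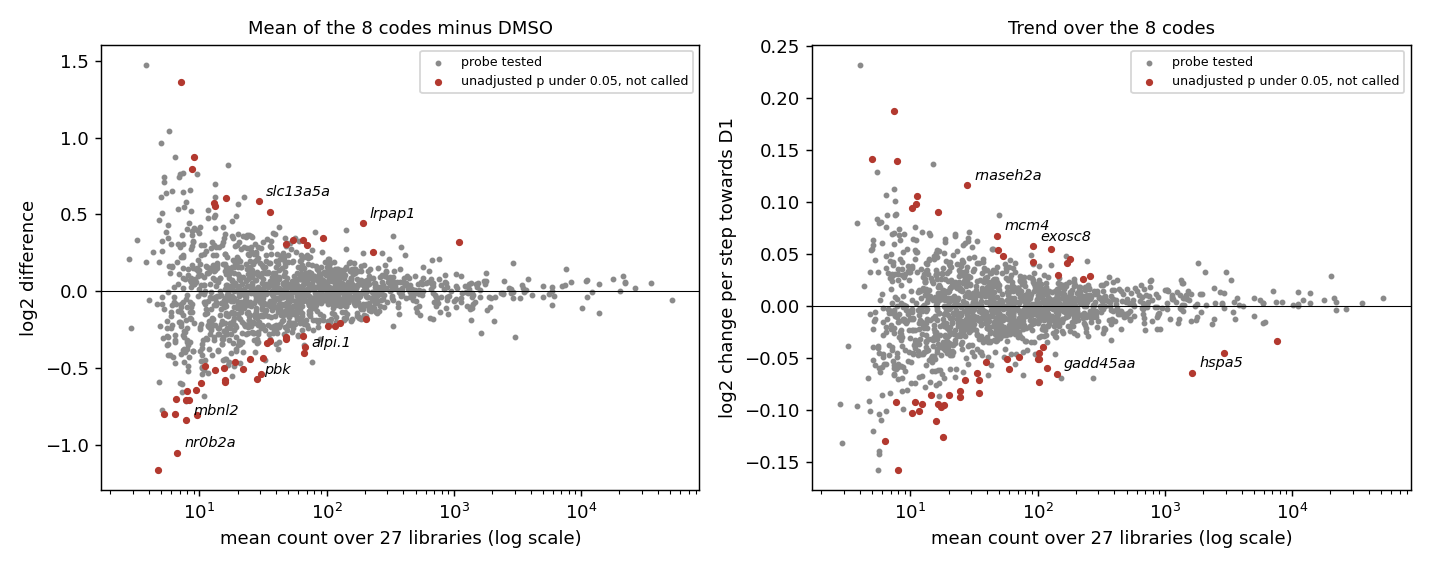
Log2 difference of the mean of 24 hydrochlorothiazide libraries minus 3 DMSO libraries (left) and log2 change per step towards D1 (right), each against the mean count per probe on a log axis. Grey points are the 1531 probes tested, and red points are the 50 (left) and 53 (right) with an unadjusted p below 0.05, none of which was called; the scatter widens as the count falls.

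Caffeine was the positive control on the same plates. Its 3 libraries against the same 3 DMSO libraries gave 1 call of 1531 (0.0653%), with 97 probes (6.34%) below 0.05 unadjusted. The called gene was hspb8, a small heat shock protein, at 1106.0 CPM on average with caffeine and 666.4, 720.0 and 825.8 CPM with DMSO, a log2 difference of 0.61 ± 0.12 (SE, n = 3 each, edgeR adjusted p = 0.0169). Caffeine had 0 calls when library totals replaced TMM scaling, when any 1 plate was left out, and without the DMSO library of plate A or of plate B. In hydrochlorothiazide larvae hspb8 ran from 612.2 to 853.5 CPM, and its difference from DMSO was 0.016 ± 0.094 (SE). In another exposure of the series, 3,4-dichlorophenyl isocyanate against its own 3 DMSO libraries gave 64 calls of 1507 (4.25%) by the same fit at some code, and caffeine in that exposure gave 0. The number of calls was not tested between exposures.

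The gene with the lowest p for the mean of the codes was lrpap1, a chaperone that escorts receptors of the LDL receptor family through the secretory pathway. Its level lay between 242.5 and 367.7 CPM in the 24 hydrochlorothiazide libraries (median 307.8), against 226.5, 232.5 and 237.5 CPM in the DMSO libraries. All 24 were therefore above all 3 DMSO libraries, without overlap, as was the case in either direction for 0.131% of probes. The log2 difference was 0.44 ± 0.12 (SE; 95% interval 0.20 to 0.69), with an edgeR adjusted p of 0.585, so lrpap1 was not called. The difference was 0.52 on plate A, 0.32 on plate B and 0.45 on plate C. At the single code of lowest p, D3, the libraries held 339.6, 307.7 and 338.1 CPM. The sulfoxide libraries had lrpap1 at 301.5 ± 43.3 CPM (SD, n = 24), and caffeine had 247.9, 237.6 and 237.5 CPM. Against the same 3 DMSO libraries, the sulfoxide's difference in lrpap1 was 0.38 ± 0.12 and that of caffeine 0.081 ± 0.16 (SE), neither of them called.

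Complete separation of this kind was rare. Only 2 of 1531 probes had all 24 hydrochlorothiazide libraries on one side of all 3 DMSO libraries, lrpap1 and mbnl2, and mbnl2 is named after its values were seen. mbnl2, a regulator of alternative splicing, was at 4.45 to 17.2 CPM with hydrochlorothiazide, against 20.5, 17.8 and 23.3 CPM with DMSO. It had a mean of only 7.85 counts, and its log2 difference of -0.84 ± 0.28 (SE) was not called (edgeR adjusted p = 0.999). The sulfoxide libraries had 12.3 ± 5.30 CPM of mbnl2 (SD, n = 24). With caffeine mbnl2 stood at 13.8, 12.3 and 18.3 CPM, so the lowest DMSO library and the highest caffeine library overlapped.

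The next lowest p for the mean belonged to nr0b2a, a nuclear receptor without a DNA-binding domain, known in mammals as SHP, that restrains bile acid synthesis when bile acids are high. It stood at 4.63 to 18.9 CPM with hydrochlorothiazide (median 8.82), against 14.6, 17.8 and 26.4 CPM with DMSO. The log2 difference was -1.05 ± 0.29 (SE; 95% interval -1.64 to -0.46; edgeR adjusted p = 0.585), from a mean of 6.70 counts, and it was not called. Libraries of D2 on plate A and of D7 and D8 on plate B reached into the DMSO range. Caffeine libraries had 6.89, 8.80 and 9.84 CPM of nr0b2a and the sulfoxide libraries 10.5 ± 4.78 CPM (SD, n = 24), so DMSO alone was the high group. Of the other bile acid genes, amacr, which acts in side-chain shortening, differed by 0.87 ± 0.30 (SE). It averaged 15.1 CPM with hydrochlorothiazide, 16.5 CPM with the sulfoxide and 15.9 CPM with caffeine. The DMSO libraries had 8.77, 6.46 and 9.31 CPM of amacr. The bile acid receptor nr1h4 had 77.6 ± 11.9 CPM with hydrochlorothiazide (SD, n = 24) and 90.6, 93.6 and 63.6 CPM with DMSO. The list was added after values were seen and held 7 tested genes, 0 of them called. Of the 7, 2 had an unadjusted p below 0.05 by edgeR, against 50 of 1531 (3.27%) over all probes. That count includes nr0b2a, so it is not independent of that gene. The list's median difference was -0.09, against -0.0064 over all probes.

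At single codes, 5 of the 10 genes of lowest p with a mean of at least 20 counts were found at D8. Over all probes, D4 and D8 each had 74 (4.83%) below 0.05 unadjusted by edgeR. hmox1a, the haem oxygenase that oxidative stress induces through NRF2, had 54.9, 63.6 and 43.5 CPM at D8, against 19.0, 14.5 and 31.0 CPM with DMSO. These groups did not overlap, and neither did D7, at 37.1, 47.8 and 42.1 CPM. Of all probes, 10.8% did not overlap DMSO at D8 in either direction and 7.84% at D7. Other codes reached similar single values, such as 60.1 CPM at D3 on plate B, beside 17.7 and 24.7 CPM on the other plates. The log2 difference at D8 was 1.30 ± 0.34 (SE, n = 3 each; edgeR adjusted p = 0.999), which is no call. Averaged over the codes, the difference was 0.61 on plate A, 0.99 on plate B and -0.07 on plate C. Among all 15 tested genes of NRF2 and oxidative stress, 0 were called, 0 had an unadjusted p below 0.05 for the mean, and the median difference was -0.02.

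gadd45aa, a gene of growth arrest and DNA damage signalling, stood at 350.5, 285.2 and 324.3 CPM at D8. DMSO libraries had 219.2, 143.7 and 198.7 CPM, and the other 21 hydrochlorothiazide libraries lay between 166.8 and 275.1 CPM. D8 was thus the highest code on every plate, at 0.75 ± 0.21 log2 units (SE, n = 3 each; adjusted p = 0.999 by edgeR) over DMSO. D8 and DMSO did not overlap for gadd45aa, as for 10.8% of all probes in either direction. The slope of gadd45aa towards D1 was -0.065 ± 0.023 per step (SE), also not called. In the sulfoxide libraries the D8 mean was 219.8 CPM and the highest code mean 297.3 CPM, at D3.

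alpi.1, an alkaline phosphatase of the intestinal brush border, had 100.1, 80.8 and 62.1 CPM at D8, against 146.1, 148.5 and 107.1 CPM with DMSO. The groups did not overlap at D8, as for 10.8% of all probes in either direction, and D1 on plate A reached 146.3 CPM. The differences of -0.75 ± 0.20 at D8 and -0.40 ± 0.14 for the mean (SE) were not called by edgeR. Its paralog alpi.2 was more abundant per probe, with 1224.4 ± 154.0 CPM under hydrochlorothiazide (SD, n = 24) and 1353.3, 1128.4 and 991.8 CPM with DMSO. Sulfoxide libraries had 97.2 ± 11.6 CPM of alpi.1 (SD, n = 24) and caffeine averaged 138.2 CPM. The remaining digestive enzymes gave 0 calls, and the list median was 0.14.

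fpgs, which adds glutamates to folates and so keeps them in the cell, was the case in which 1 DMSO library decided a call. Its D8 libraries had 158.3, 189.0 and 195.5 CPM, and the DMSO libraries had 168.1 CPM on plate A, 96.9 on plate B and 90.0 on plate C. With all 3 DMSO libraries the difference was 0.57 ± 0.17 at D8 and 0.35 ± 0.13 for the mean of the codes (SE), neither of them called. Without the DMSO library of plate A, fpgs became the only call, at 0.95 for D8 (edgeR adjusted p = 0.0256) and 0.72 for the mean (edgeR adjusted p = 0.0211). With every library of plate A left out, fpgs was not called. It then stood at 1.00 for D8 (edgeR adjusted p = 0.215) and 0.75 for the mean (edgeR adjusted p = 0.0757). On plate A itself, the hydrochlorothiazide mean was 142.4 CPM and lay below DMSO. The sulfoxide libraries had 148.3 ± 18.5 CPM of fpgs (SD, n = 24), and caffeine averaged 153.0 CPM.

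**Figure D2:**
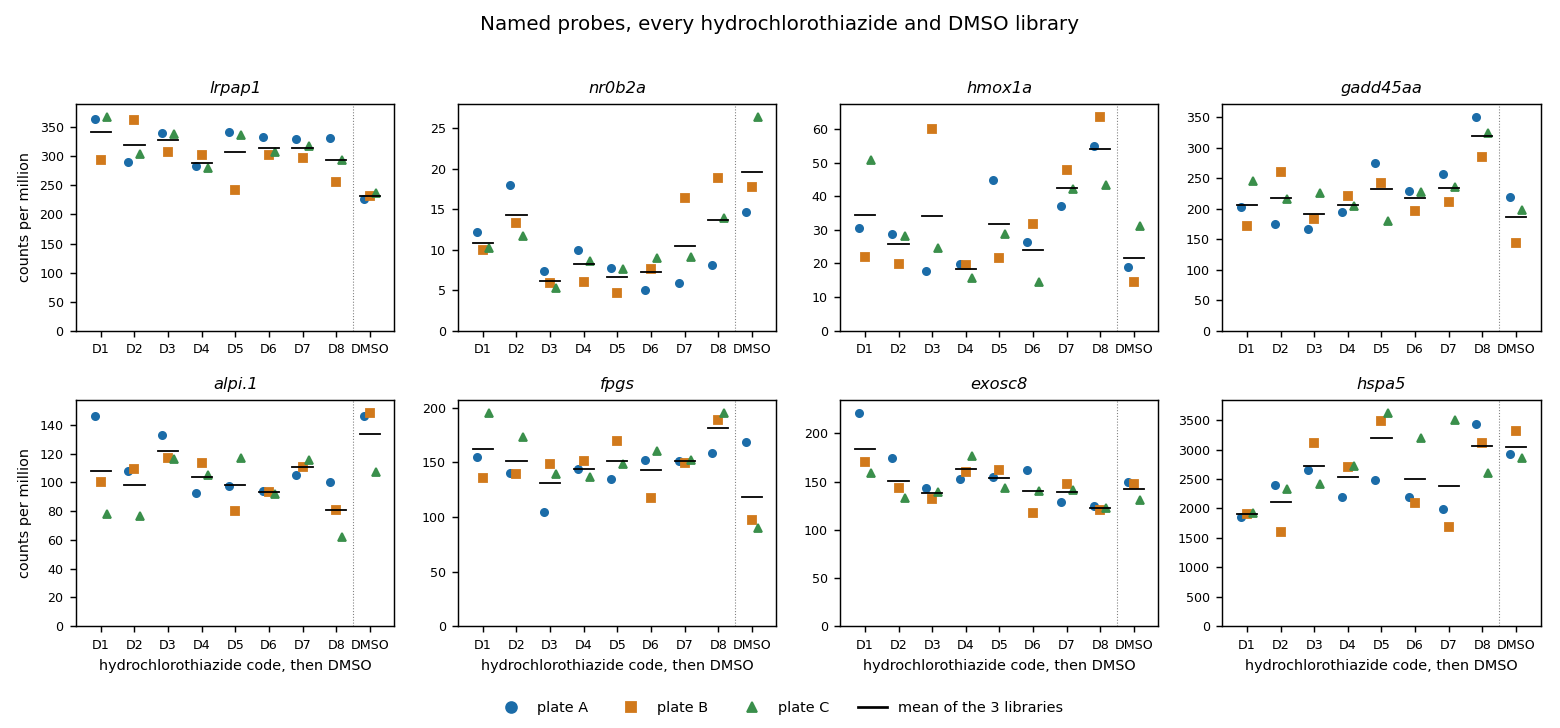
CPM of 8 named probes in each of the 24 hydrochlorothiazide libraries, by code, and in the 3 DMSO libraries at the right, with symbols for the plate and bars for the mean of 3. lrpap1 lies above DMSO in all 24 libraries, hmox1a and gadd45aa are highest at D8, and the DMSO library of plate A stands apart for fpgs; none was called.

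The other genes of lowest p were also uncalled. Among the single-code genes were slc13a5a (a citrate transporter in mammals) at D2 with 0.93 ± 0.28, psmd12 (a proteasome subunit) at D6 with -0.64 ± 0.19, and the liver and fat transcription factor cebpa at D3 with -0.48 ± 0.15 log2 units (SE). For the mean of the codes, the alpha-2B adrenergic receptor gene adra2b was at 58.7 ± 10.4 CPM with hydrochlorothiazide (SD, n = 24), against 45.3, 38.7 and 38.8 CPM with DMSO. The proteasome ATPase psmc3 was at 318.4 ± 23.2 CPM against 330.3, 372.9 and 383.4 CPM. The exonuclease gene isg20, which interferon induces, was at 103.7 ± 19.8 CPM against 118.4, 145.3 and 138.1 CPM. Differences of these 3 genes were 0.51 ± 0.18, -0.18 ± 0.075 and -0.36 ± 0.15 (SE). The sulfoxide means were 53.1 CPM for adra2b, 320.4 CPM for psmc3 and 109.2 CPM for isg20.

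Trends over the codes were shallow. exosc8, a subunit of the RNA exosome, had the lowest p of the named genes and averaged 183.5, 150.1, 138.1, 162.7, 153.2, 140.0, 139.2 and 122.4 CPM from D1 to D8. Its slope was 0.058 ± 0.018 log2 units per step towards D1 (SE; edgeR adjusted p = 0.993). The D1 libraries of exosc8, at 221.5, 169.9 and 159.3 CPM, were above all D8 libraries, at 124.4, 120.3 and 122.6 CPM, while DMSO had 149.1, 146.9 and 130.4 CPM, between both ends. Of all probes, 8.23% had D1 and D8 libraries that did not overlap, in either direction, and exosc8 was named for its trend. mcm4, part of the replicative helicase, averaged 94.7 CPM at D1 and 60.3 CPM at D8, a slope of 0.068 ± 0.023 (SE). rnaseh2a, which removes RNA from DNA, had a slope of 0.12 ± 0.040 (SE) over a range of 24.2 to 93.3 CPM.

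hspa5, the main chaperone of the endoplasmic reticulum, had a slope of opposite sign. It was lowest at D1, with 1861.6, 1910.4 and 1929.9 CPM, and all 3 of these libraries were below the DMSO libraries at 2930.2, 3320.7 and 2859.1 CPM, a separation that 7.38% of all probes had at D1 in either direction. At D8 it had 3439.0, 3115.2 and 2608.6 CPM, which overlapped DMSO. The slope was -0.064 ± 0.026 per step towards D1 (SE; edgeR adjusted p = 0.993), and the order was not even, since D7 ranged from 1682.3 to 3499.2 CPM. In the sulfoxide series the slope of hspa5 was 0.044 ± 0.026 (SE), and the test of the difference between both slopes, -0.11 ± 0.036 (SE), was not called either (edgeR adjusted p = 0.806). Over the 7 tested genes of the unfolded protein response, 6 lay below zero for the mean of the codes, against 802 of 1531 over all probes. The list median was -0.14, and 0 were called. Against the same DMSO libraries the list median was -0.085 with the sulfoxide and -0.22 with caffeine.

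A test of any difference among the 8 codes, with plate as a term, was added after the data were seen. It called 1 of 1489 probes (0.0672%) by edgeR. Unadjusted, 143 of the 1489 had p below 0.05, a larger share than for the trend (3.46%). It was also larger than at any single code against DMSO (2.55% to 4.83%). Those comparisons had no plate term. The called gene was calm1a, which encodes the calcium sensor calmodulin (edgeR adjusted p = 0.0458). Its code means from D1 to D8 were 1459.5, 1594.7, 1338.3, 1135.2, 1183.7, 1558.2, 1622.0 and 1664.4 CPM, lowest in the middle of the series. The sulfoxide libraries at the same codes averaged 1523.0, 1581.3, 1368.7, 1358.1, 1466.4, 1618.1, 1503.8 and 1796.4 CPM, and the DMSO libraries had 1189.6, 1378.6 and 1865.7 CPM. Both compounds had their lowest calm1a mean at D4 and their highest at D8. With a plate left out, calm1a was not called (edgeR adjusted p = 0.347 without plate A, 0.199 without plate B and 0.442 without plate C). DESeq2's likelihood-ratio test called 6 probes, calm1a among them (adjusted p = 7.41e-05).

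The genes closest to the drug's known action showed intervals around zero in most cases. Of the carbonic anhydrases, which turn carbon dioxide into bicarbonate and acid, cahz (a red cell enzyme in zebrafish) had 321.4 to 489.7 CPM with hydrochlorothiazide (median 413.6), against 404.8, 423.0 and 402.0 CPM with DMSO. Its log2 difference was 0.0040 ± 0.097 (SE; 95% interval -0.19 to 0.20). Its mean was 431.1 CPM at D1 and 367.1 CPM at D8, a slope of 0.029 ± 0.014 (SE) with an unadjusted edgeR p of 0.0489 and an adjusted p of 0.993. ca8, a relative without the catalytic activity, differed by -0.15 ± 0.17 (SE). ca7 differed by -0.15 ± 0.42 (SE) from a mean of 7.44 counts. Another member, ca9, was below the count filter.

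The list of ionocyte pumps, exchangers and regulators held 4 genes on the panel, all tested. None of the marker genes chosen for ionocytes is among them, so these genes do not measure ionocytes as a cell type. The hormone gene prl, whose product prolactin keeps salt in freshwater fish, had 17.6 ± 4.26 CPM with hydrochlorothiazide (SD, n = 24) and 16.1, 16.1 and 18.6 CPM with DMSO. The sulfate transporter slc26a2 had 59.5 ± 16.5 CPM against 68.7, 50.04 and 60.5 CPM, and the scaffold of sodium-hydrogen exchangers slc9a3r1a had 190.8 ± 36.7 CPM against 178.3, 213.1 and 204.9 CPM. Their differences were 0.042 ± 0.29, -0.020 ± 0.19 and -0.056 ± 0.14 (SE), and their groups overlapped. slc9a7, a sodium-hydrogen exchanger of the Golgi and endosomes, was the exception in the list. It stood at 0 to 13.3 CPM with hydrochlorothiazide (median 6.37), against 11.7, 16.1 and 15.5 CPM with DMSO. The sulfoxide libraries had 8.22 ± 3.65 CPM (SD, n = 24) and caffeine averaged 8.73 CPM of slc9a7, so all 3 treatments had a mean below the lowest DMSO library. From a mean of 4.70 counts, its log2 difference of -1.16 ± 0.41 (SE; 95% interval -1.98 to -0.34) was not called (edgeR adjusted p = 0.999).

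Water and potassium transport gave the same outcome. The water and glycerol channel aqp3a, abundant at 1805.7 ± 142.2 CPM with hydrochlorothiazide (SD, n = 24) and 1635.4, 1670.8 and 1786.6 CPM with DMSO, differed by 0.097 ± 0.079 (SE; 95% interval -0.061 to 0.26). aqp4, the water channel of glia in mammals, was at 25.3 ± 8.70 CPM against 35.1, 33.9 and 35.7 CPM. Its difference of -0.48 ± 0.24 (SE) had an unadjusted p of 0.0571 by edgeR and was not called, and the sulfoxide averaged 28.1 CPM and caffeine 20.9 CPM of aqp4. The 4 tested potassium channel genes had differences from -0.41 to 0.20, with 0 called. The 8 tested genes of osmotic stress had a median of 0.026 and 0 calls.

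Hormone genes of salt and water balance were likewise not called. The mineralocorticoid receptor gene nr3c2 differed by -0.030 ± 0.24 (SE) and the vasopressin-type receptor gene avpr2ab by -0.35 ± 0.20 (SE). Mean levels of avpr2ab were 30.6 CPM with hydrochlorothiazide, 32.5 CPM with the sulfoxide and 39.2 CPM with DMSO. The 10 tested genes of the renin-angiotensin and corticosteroid list had a median of 0.060 and 0 calls. Of these, 8 lay above zero, against 729 of 1531 over all probes.

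The list of organic anion and cation transporters held 7 tested genes, 0 of them called. slc22a6l, named after the organic anion transporter, had 11.6 to 52.8 CPM with hydrochlorothiazide (median 27.9) and 29.2, 19.4 and 18.6 CPM with DMSO, a difference of 0.36 ± 0.33 (SE). The extrusion transporter slc47a1 differed by -0.29 ± 0.19 (SE) and slco2b1 by -0.022 ± 0.093 (SE). For purine breakdown, xdh, which makes urate, differed by -0.39 ± 0.32 (SE) from a mean of 8.96 counts. uox, the urate oxidase that fish retain and people have lost, differed by -0.20 ± 0.39 (SE) from a mean of 6.85 counts. Among the 5 tested genes of this list 0 were called.

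**Figure D3:**
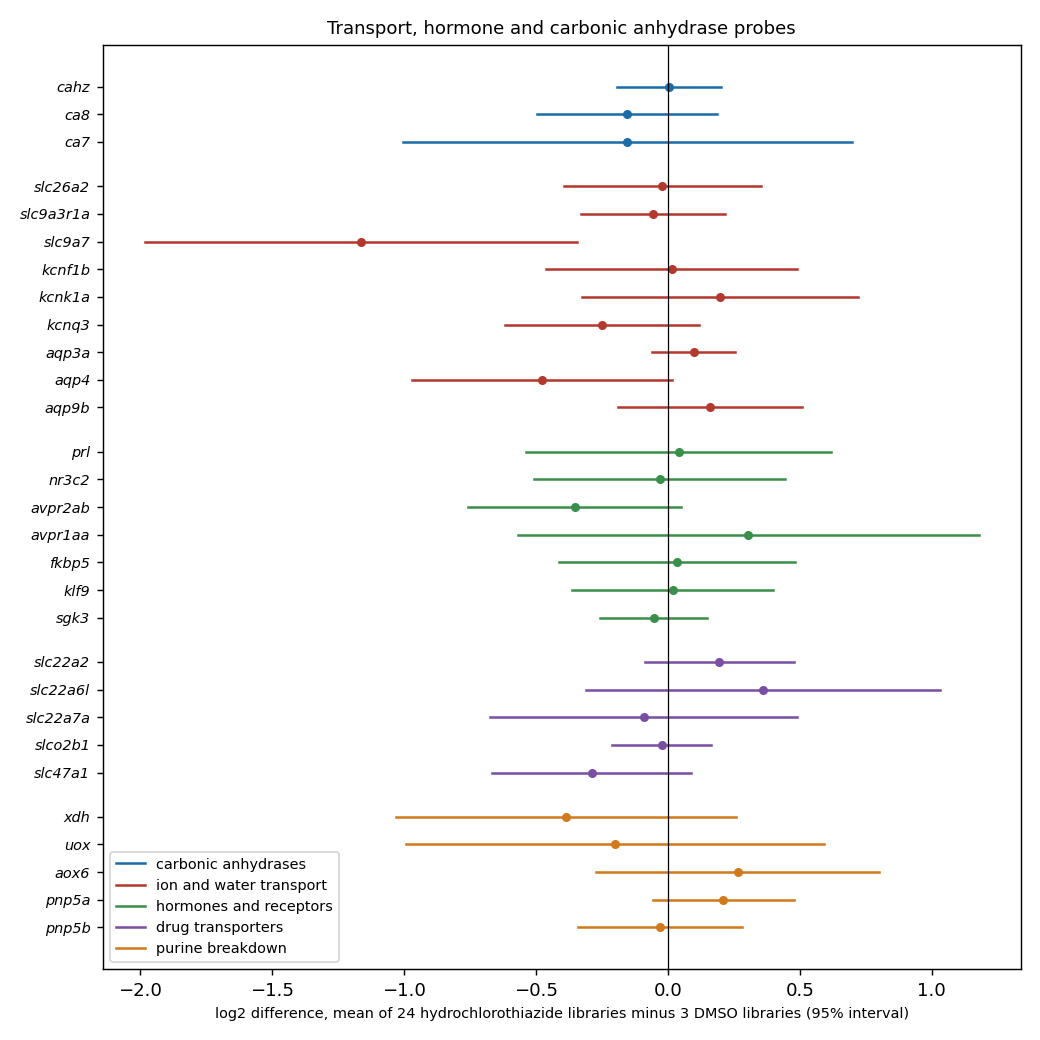
Log2 difference of the mean of 24 hydrochlorothiazide libraries minus 3 DMSO libraries, with its 95% interval, for probes of carbonic anhydrases, ion and water transport, hormones and receptors, drug transporters and purine breakdown. slc9a7 is the probe whose interval does not reach zero, from a mean of 4.70 counts, and it was not called after adjustment.

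Genes of the cell cycle and DNA replication lay mostly below DMSO as a list, again without a call. Of 40 tested members, 35 had a mean difference below zero, against 802 of 1531 over all probes, and the list median was -0.21, against -0.0064 over all probes. Of the 40 members, 3 had an unadjusted p below 0.05 by edgeR, against 50 of 1531 (3.27%) over all probes. These 3 were the mitotic kinase pbk at -0.57 ± 0.24, the cytokinesis kinesin kif23 at -0.64 ± 0.29, and mcm4 at -0.31 ± 0.15 log2 units (SE). pcna, the sliding clamp of DNA polymerases and the best counted member, differed by -0.18 ± 0.13 (SE). The list also holds kif5c and kif13a, kinesins that move cargo rather than chromosomes, at -0.24 and -0.39.

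The summed level of the 40 probes was 3261.8 to 4820.4 CPM with hydrochlorothiazide (median 3852.1), 3186.6 to 4908.9 CPM with the sulfoxide, 3152.2, 3810.3 and 2775.7 CPM with caffeine, and 4270.3, 3945.4 and 5083.4 CPM with DMSO. Below the DMSO library of the same plate were 6 of 8 hydrochlorothiazide libraries on plate A, 6 of 8 on plate B and 8 of 8 on plate C. The list median against DMSO was -0.13 on plate A, -0.15 on plate B and -0.33 on plate C, and ranged from -0.41 to -0.059 over single codes. Against the same 3 DMSO libraries the list median was -0.22 with the sulfoxide and -0.38 with caffeine. In the direct comparison of hydrochlorothiazide with the sulfoxide, which uses no DMSO library, it was 0.043.

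The other lists also gave 0 calls, with medians on both sides of that of all probes. The 37 tested ribosomal protein genes had a median of 0.019, the 27 neuron and synapse genes 0.058, the 27 genes of skin, cartilage and bone -0.043, and the 21 carbohydrate and energy genes 0.0064. Immediate-early genes, which respond within minutes to stimulation, had a median of 0.081 over 16 tested members. The lipid metabolism genes had -0.0048 over 12 and the 5 xenobiotic metabolism genes 0.046. The medians were -0.028 for 6 heat shock genes, -0.037 for 7 muscle genes, 0.052 for 7 hypoxia genes, 0.055 for 7 clock genes, -0.035 each for 4 liver and plasma protein genes and 3 retina genes, and 0.0086 for 4 respiratory chain genes. The 9 genes of vascular tone and smooth muscle, a list added after values were seen that includes adra2b, had a median of 0.13. The 13 inflammation genes had a median of 0.081, which was -0.13 on plate A, 0.035 on plate B and 0.25 on plate C. Both tested haemoglobin genes lay below zero, hbae3 at -0.23 ± 0.33 and hbae5 at -0.45 ± 0.72 (SE), and hbae5 had 21.9, 132.4 and 29.5 CPM in the DMSO libraries. The calcium-binding protein gene s100a11, the one tested member of the calcium and magnesium list, differed by 0.20 ± 0.10 (SE). In the xenobiotic list, ahrra, the repressor that the aryl hydrocarbon receptor induces, had 98.6 ± 19.5 CPM with hydrochlorothiazide (SD, n = 24). It had 68.7, 79.1 and 88.5 CPM with DMSO and a mean of 99.3 CPM with the sulfoxide. Its difference of 0.33 ± 0.17 (SE) between hydrochlorothiazide and DMSO was not called.

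The comparison with 4-chlorophenyl methyl sulfoxide set 24 libraries against 24 at matched codes and plates and called 1 of 1531 probes (0.0653%) by edgeR, with 66 below 0.05 unadjusted. DESeq2 called 1 as well and put 50 below 0.05 unadjusted. Each compound had its own column of the library plate, so compound and library column cannot be told apart in this comparison. The gene was nprl2, a subunit of the GATOR1 complex that restrains mTORC1 when amino acids are scarce. It had 110.2 ± 19.9 CPM with hydrochlorothiazide and 88.1 ± 9.85 CPM with the sulfoxide (SD, n = 24 each), a log2 difference of 0.32 ± 0.058 (SE; 95% interval 0.20 to 0.44; edgeR adjusted p = 0.00221). Hydrochlorothiazide was higher in 21 of 24 pairs of the same code and plate, and in 7 of 8 code means. Hydrochlorothiazide had its highest nprl2 levels at D6, with 139.4, 155.6 and 120.6 CPM (sulfoxide mean 96.9 CPM), and at D7, with 133.4, 125.5 and 131.7 CPM (sulfoxide mean 84.8 CPM). At D5 hydrochlorothiazide had its lowest levels of nprl2, 72.7, 91.1 and 89.6 CPM, and the sulfoxide mean was 88.8 CPM.

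The difference in nprl2 was 0.35 on plate A, 0.32 on plate B and 0.25 on plate C. With plate A left out of the fit it was 0.30 (edgeR adjusted p = 0.737) and without plate B 0.31 (edgeR adjusted p = 0.264), so the call rested on having all plates or on leaving out plate C alone (0.34; edgeR adjusted p = 0.0300). Caffeine averaged 92.3 ± 17.7 CPM of nprl2 (SD, n = 3), nearer the sulfoxide mean of 88.1 CPM. DMSO libraries had 106.7, 109.8 and 110.2 CPM of nprl2, close to the hydrochlorothiazide mean. Against them, hydrochlorothiazide differed by 0.013 ± 0.12 and the sulfoxide by -0.31 ± 0.12 (SE), neither of them called, and both comparisons share those 3 libraries.

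The second gene by p was pibf1, a protein of the centrosome, at 42.2 ± 6.56 CPM with hydrochlorothiazide and 32.6 ± 8.85 CPM with the sulfoxide (SD, n = 24 each). It was higher with hydrochlorothiazide in 8 of 8 code means and 19 of 24 pairs, by 0.39 ± 0.092 (SE), and missed the threshold (edgeR adjusted p = 0.0744). The nucleoporin gene nup93 had a lower mean with hydrochlorothiazide, at 40.4 CPM against 51.1 CPM (n = 24 each), a difference of -0.34 ± 0.088 log2 units (SE; edgeR adjusted p = 0.150), and was not called. The antioxidant enzyme gene prdx1 differed by 0.35 ± 0.11 (SE) and was not called; 4 of 15 genes of NRF2 and oxidative stress (prdx1, gpx2, gclm and gpx4b, all with a higher mean in hydrochlorothiazide) had an unadjusted p below 0.05 here, against 66 of 1531 (4.31%) over all probes. The median difference of all 15 genes in that list was 0.024, against 0.0009 over all probes. Over all probes, the 95% interval lay within 0.5 log2 units of zero for 1382 of 1531 (90.3%) and within 1 for 1525 (99.6%). No probe was called for a slope that differed between the compounds (0 of 1531, 0%; 55 below 0.05 unadjusted by edgeR and 41 by DESeq2, which called 0). The lowest p there was that of copa, a coat protein of Golgi vesicles, at -0.13 ± 0.037 per step (SE; edgeR adjusted p = 0.806).

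**Figure D4:**
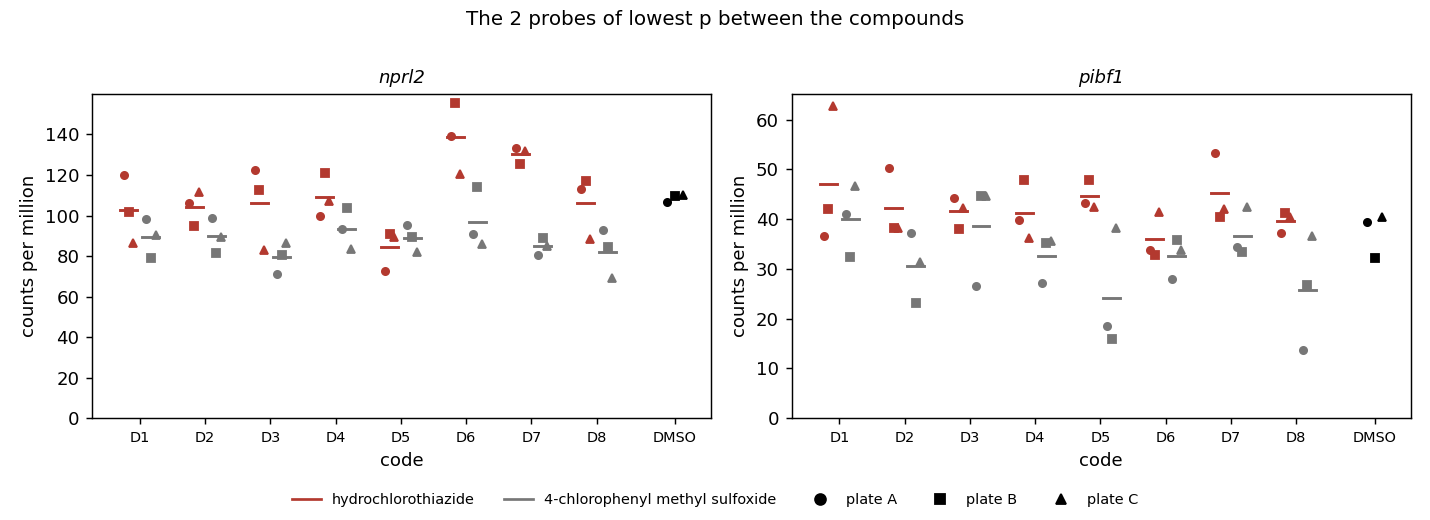
CPM of nprl2 (left) and pibf1 (right) by code, with hydrochlorothiazide in red and left of 4-chlorophenyl methyl sulfoxide in grey at each code, and DMSO in black at the right; symbols give the plate and bars the mean of 3. nprl2 averaged 110.2 CPM with hydrochlorothiazide and 88.1 CPM with the sulfoxide, with its highest hydrochlorothiazide means at D6 and D7, and pibf1 was higher with hydrochlorothiazide in 8 of 8 code means.

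Among the same 24 hydrochlorothiazide libraries, more probes were called between plates than between codes. The plate term compared 3 groups of 8 libraries and the code term 8 groups of 3, so these counts do not rank the sizes of both effects. The same library wells recur under each plate letter, so exposure plate and library plate cannot be told apart here. A test of the plate term in a fit with code and plate, also added after the data were seen, called 168 of 1489 probes (11.3%) by edgeR, 43 of them by more than 0.5 log2 units, and 98 by DESeq2. oaz1a, which controls polyamine synthesis, had 830.7 ± 167.1, 1172.1 ± 111.6 and 1341.2 ± 258.3 CPM on plates A, B and C (SD, n = 8 each; edgeR adjusted p = 6.01e-06). The glycolytic enzyme gene gapdh had 445.2 ± 77.3, 652.4 ± 49.9 and 732.2 ± 110.2 CPM. The lysosomal enzyme gene gusb ran the other way, at 221.0 ± 26.9, 161.6 ± 17.2 and 173.4 ± 17 CPM.

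The DMSO libraries of the same plates had 757.0, 1294.7 and 1448.2 CPM of oaz1a, 409.2, 628.0 and 723.3 CPM of gapdh, and 214.8, 180.8 and 169.2 CPM of gusb, the same order of plates for oaz1a and gapdh. Of the 37 ribosomal protein probes, 18 were called between plates, in both directions, against 168 of 1489 (11.3%) over all probes. rpl39 was highest on plate A, at 39469.0, against 31312.3 and 30460.0 CPM on plates B and C. rpl26 was lowest on plate A, at 7762.7, against 10487.2 and 10086.5 CPM. Without plate A, 2 probes were called between plates B and C. Without plate B 112 were called, and without plate C 138. Of the 40 cell cycle probes tested against DMSO, 0 were called between plates, against the same 11.3% over all probes. The plate fit had its own count filter, so fewer members of the ribosomal and cell cycle lists may have been tested in it. Counts differ between probes, so the shares of these lists are not compared. Along the first principal component of the 54 libraries, which held 9.61% of the variance, plate accounted for 44.6% and group for 30.7% of the spread. Such a share rises with the number of levels even without any effect, and groups were far more numerous than plates. These shares are therefore not comparable, and the group share does not show a group effect.

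**Figure D5:**
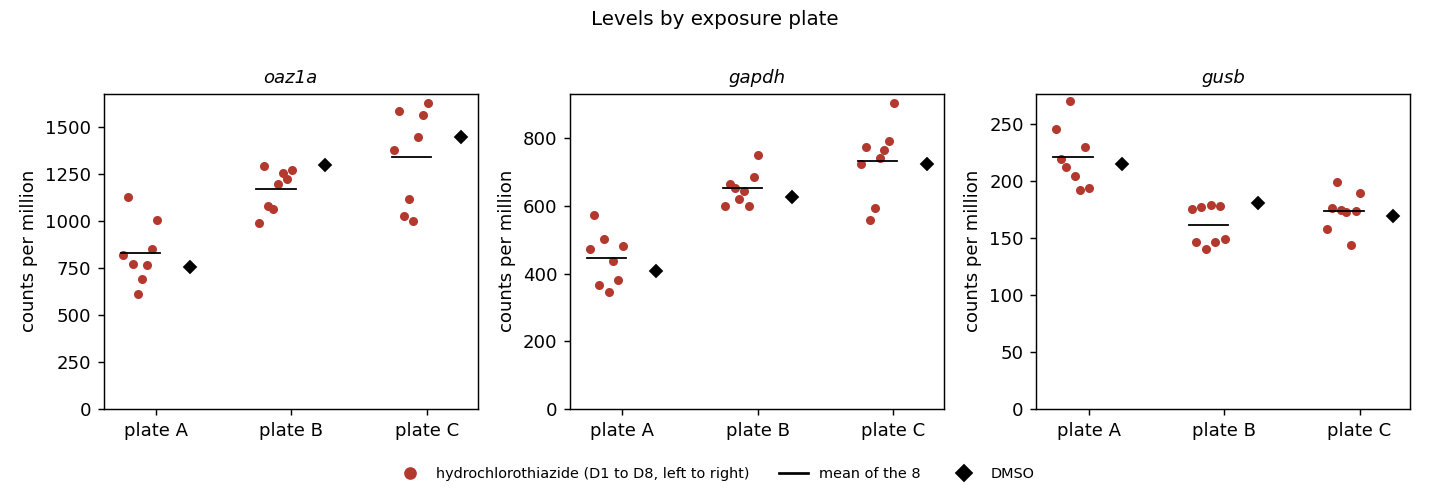
CPM of oaz1a, gapdh and gusb on plates A, B and C, with the 8 hydrochlorothiazide libraries of each plate in red (D1 to D8 from left to right), a bar for their mean, and the DMSO library of that plate as a black diamond. Plate A is low for oaz1a and gapdh and high for gusb among the hydrochlorothiazide libraries, and the DMSO library of plate A is also low for oaz1a and gapdh and high for gusb.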

How the data were processed

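TempO-Seq libraries were made from pooled whole-larva homogenates, per the labels' protocols. The submitters' processing notes name bcl2fastq; the alignment step is not given in the sources used here. Both tables that the authors deposited for these libraries, one of the compound and one of the series, hold whole-number counts for each probe, and 0 cells differed between them. The other 13 tables were not used. RefSeq's gene table of the species lists 1721 of the 1829 symbols. Levels are counts divided by library totals (CPM); a probe's level depends on its own oligos, so levels were not compared between genes unless stated per probe.

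The 54 libraries of the exposure were fitted together with edgeR 4.0.16 (R 4.3.3; TMM scaling; filterByExpr with a minimum count of 10; 1 mean per group) and tested with quasi-likelihood F-tests, Benjamini-Hochberg at 0.05; 301 of 1832 probes fell below the filter. Standard errors follow from the F statistic, with 95% intervals on the moderated degrees of freedom. Within-plate differences are of log2 CPM with a prior count of 2. DESeq2 1.42.0, other scalings, no filter, left-out libraries, left-out codes and a plate block were the alternatives. Named genes were called genes and, where fewer than 10 were called, the 10 of lowest p with a mean of at least 20 counts. Every tested gene of the carbonic anhydrase and ionocyte lists was also named, as was the gene of lowest p of each other list. The members and lists were chosen with earlier results of these data known, and 4 lists (salt and water hormone receptors, purine breakdown, vascular tone, bile acid) were added after values were seen.

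The letter in each column name was read as the exposure plate, since the labels' protocols pool larvae within each of 3 plates. Same-lettered libraries are therefore paired. The same library wells recur under each letter, so the letter also separates library plates. The mean correlation of the libraries' deviations was 0.0726 within a plate (A 0.124, B 0.0489, C 0.0451) and -0.0362 between plates. Replicates were distinct libraries: the lowest chi-square per degree of freedom between replicates of a code was 3.20. Replicates are separate pools, each from a different plate, and the main fit had no plate term. Its p-values therefore measure the spread between pools and plates together. The caffeine libraries carry DMSO in their titles and caffeine in their treatment label, which was used. Intervals and totals cover counting error and replicate spread, and reads lack molecular identifiers.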

Additional observations from a re-analysis of the deposited data

Results flagged for a closer look

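nprl2, the GATOR1 subunit, differed between the compounds in the test of the difference itself, at 0.3197 log2 units for hydrochlorothiazide minus 4-chlorophenyl methyl sulfoxide over all codes, with an edgeR adjusted p of 0.00221. Hydrochlorothiazide was higher in 21 of 24 pairs of the same code and plate. Its levels with hydrochlorothiazide lay around those with DMSO, and the sulfoxide averaged lower, at 88.1 CPM. Caffeine, at 92.3 ± 17.7 CPM (SD, n = 3), averaged between the sulfoxide and DMSO. Compound and library column cannot be told apart here.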

How the results depend on the processing

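Counts of calls at some code and for the mean of the codes were 0 to 1 with a replicate or DMSO library left out (1, fpgs, without the DMSO library of plate A), and 0 under the other alternatives run. The trend and the difference in slopes gave 0 calls under each alternative run. Hydrochlorothiazide against the sulfoxide gave 1 call, and 0 to 1 with a plate left out (0 without plate A or B). With a replicate block for the plate, the counts of calls were 0 for the codes, mean, trend and slope difference, 1 for the sulfoxide and 1 for caffeine, so pairing changed no count; nprl2 stood at 0.32 (adjusted p = 0.000321 by edgeR). The caffeine count was 0 with library totals and 0 to 1 with a plate or DMSO library left out. The plate comparison gave 168 calls, 98 by DESeq2 and 2 to 138 with a plate left out. The test over all codes gave 1 call, 6 by DESeq2 and 0 with any plate left out. The cause was not tested.

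For named genes, 1074 of 1091 alternative values kept their direction and side of the threshold, 2 passed it (fpgs), 2 no longer did (nprl2) and 13 changed sign, all of them uncalled values. With a plate or DMSO library left out, the mean of the codes minus DMSO ranged from -0.11 to 0.12 for slc26a2, from -0.11 to 0.023 for slc9a3r1a, from -0.45 to 0.074 for ca7, from -0.058 to 0.060 for cahz, from -0.14 to 0.50 for f5 and from -0.54 to 0.088 for hbae3, and the slope of ca7 from -0.16 to 0.012. With library totals cahz stood at -0.0035. The lists' differences rest on 3 DMSO libraries, and probes under 20 counts are bounded loosely.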
